A study of Mus musculus with 16 samples.

Results

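A set of 10 genes of bone morphogenetic protein (BMP) and myostatin signalling were examined for H3K4me3 and H3K27me3 in muscle stem cells. They were chosen by name as the ligands Bmp2, Bmp4 and Mstn, the secreted antagonists Chrdl2 and Fst, the inhibitory Smads Smad6 and Smad7, and the target genes Id1, Id2 and Id3, and all 10 were found among 21887 protein-coding gene records. Each was read over its gene record and 10 kb either side. The cells were muscle stem cells (satellite cells) from skeletal muscle of C57BL/6 mice, in a quiescent state (QSC) or an activated state (ASC). No genetic change or drug is named for any group, and the sources used here do not give the age of the mice or how cells were isolated and activated. Of the 16 libraries 8 were inputs, and 8 were immunoprecipitates, 2 for every pairing of mark and state. For each state and mark the authors deposited 1 narrow and 1 broad peak list shared by both replicates, so no value below has a replicate error, no difference between the states could be tested, and read depth is unknown.

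BMPs bind a pair of serine/threonine kinase receptors that phosphorylate Smad1, Smad5 and Smad9, which enter the nucleus with Smad4 and switch on the Id genes. Id proteins bind the E proteins that MyoD family factors need as partners, and so hold back myogenic differentiation. Myostatin signals through activin receptors to Smad2 and Smad3 and limits muscle growth. Smad6 and Smad7 are feedback inhibitors, follistatin (Fst) binds myostatin and activins, and chordin-like 2 (Chrdl2) binds BMPs outside the cell. H3K4me3 marks active or poised promoters, and H3K27me3 is the repressive mark that Polycomb complexes deposit. A gene with both marks is often called bivalent; a peak list of a cell population does not show whether both marks lie on the same chromosomes, and a mark on fewer cells and less of it per cell cannot be told apart.

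RefSeq promoter sequences (GRCm38.p6, whose chromosome coordinates are those of mm10) were on hand for 5 of the 10 genes, Bmp4, Mstn, Smad6, Id2 and Id3. The 4 printed here stand for the patterns described below: no peak of either main list (Mstn), H3K4me3 alone (Id3), and H3K4me3 joined in ASC by H3K27me3 just inside the gene (Bmp4 and Smad6). Each runs 5′ to 3′ along the gene from 250 bases before the start to 50 bases after it, with every CpG in capitals. The positions are chr1:53061390-53061689 on the plus strand for Mstn, chr14:46390620-46390919 on the minus strand for Bmp4, chr9:64022010-64022309 on the minus strand for Smad6 and chr4:136143572-136143871 on the plus strand for Id3.
Mstn: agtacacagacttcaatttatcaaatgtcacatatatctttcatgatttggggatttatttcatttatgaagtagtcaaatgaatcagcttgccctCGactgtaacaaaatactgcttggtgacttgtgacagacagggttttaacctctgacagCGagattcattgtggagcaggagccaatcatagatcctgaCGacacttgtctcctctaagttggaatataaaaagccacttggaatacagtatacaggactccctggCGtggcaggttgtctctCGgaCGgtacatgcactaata
Bmp4: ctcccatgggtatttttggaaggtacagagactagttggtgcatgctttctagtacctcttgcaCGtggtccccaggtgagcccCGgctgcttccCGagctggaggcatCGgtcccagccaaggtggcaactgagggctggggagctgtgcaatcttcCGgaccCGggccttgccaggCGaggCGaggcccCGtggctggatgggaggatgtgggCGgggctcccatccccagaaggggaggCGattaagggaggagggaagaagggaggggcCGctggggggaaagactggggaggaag
Smad6: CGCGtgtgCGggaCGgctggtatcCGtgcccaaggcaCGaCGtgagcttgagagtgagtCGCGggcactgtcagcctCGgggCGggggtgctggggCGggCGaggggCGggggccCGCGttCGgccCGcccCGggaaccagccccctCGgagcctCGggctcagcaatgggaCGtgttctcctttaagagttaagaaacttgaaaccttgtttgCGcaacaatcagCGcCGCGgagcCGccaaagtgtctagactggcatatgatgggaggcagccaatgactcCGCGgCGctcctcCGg
Id3: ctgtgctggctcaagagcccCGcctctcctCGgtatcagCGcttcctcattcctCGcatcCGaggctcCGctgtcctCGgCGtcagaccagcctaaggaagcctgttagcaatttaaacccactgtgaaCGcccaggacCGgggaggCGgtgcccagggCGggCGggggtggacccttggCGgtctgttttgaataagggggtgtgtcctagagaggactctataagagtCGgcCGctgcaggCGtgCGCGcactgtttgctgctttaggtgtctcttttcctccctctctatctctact

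The Mstn sequence held 6 CpGs and 41.3% G or C, the lowest of the 5. Bmp4 had 12 CpGs, Id3 19, Id2 21 and Smad6 31, beside a median of 13 over 21263 promoters of protein-coding genes. Among 2751 promoters with 6 to 10 CpGs, as at Mstn, 31.4% were touched by an H3K4me3 narrow peak in QSC and 35.6% in ASC, against 90.8% and 92.7% of the 2974 promoters with over 30 CpGs, as at Smad6. H3K4me3 peaks overlapped the Bmp4, Smad6, Id2 and Id3 sequences in both states and the Mstn sequence in neither. No H3K27me3 broad peak reached any of the 5 sequences. The letters GGCGCC, a GC-rich element of BMP-responsive promoters, were found once, in Id2, and occur in 15.3% of the 21263 promoters. CAGAC, a form of the Smad3 and Smad4 binding element, was found 2 times each in Mstn and Id3 and occurs in 48.4% of promoters on either strand. TATAAA, the TATA box, was found in Mstn alone of the 5 and occurs in 12.6%. Both strands were searched, and no match in the 5 sequences shared a base with another.

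**Figure D1:**
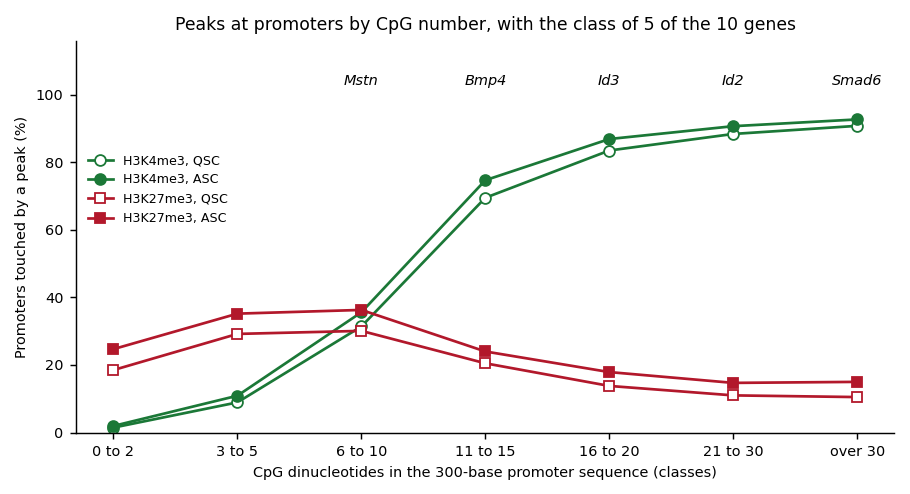
Share of promoters (vertical axis, percent) touched by an H3K4me3 narrow peak (green) or an H3K27me3 broad peak (red) in QSC (open symbols) and ASC (filled symbols), by the number of CpGs in 300 bases of promoter sequence (horizontal axis, 7 classes). Gene names above the lines mark the class of each of the 5 genes with a sequence: Mstn lies where 31.4% of promoters carried H3K4me3 in QSC, and Smad6 where 90.8% did.

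H3K4me3 was present at an end of 9 of the 10 genes in both states and at neither end of Mstn. An H3K4me3 call needed a narrow peak that touched a window of 1 kb either side of an end of the record. An H3K27me3 call needed 500 bp or more of such a window to lie under broad peaks. Both ends were used because the gene table gives no strand. By the same rule 53.0% of all genes were called for H3K4me3 in QSC, 55.7% in ASC and 52.2% in both. H3K27me3 was called at 2 of the 10 genes in QSC (Fst and Smad7) and at 4 in ASC (Fst, Bmp4, Chrdl2 and Smad6), against 30.5% and 34.3% of all genes. The calls in ASC only were those of Bmp4, Chrdl2 and Smad6, against 7.5% of all genes, and that in QSC only was Smad7, against 3.68%. Fst alone was called in both states, against 26.8%. Bmp4, Chrdl2 and Smad6 all kept an H3K4me3 call in both states; of the 11425 genes that did so, 6.44% were called for H3K27me3 in ASC only, and 1.09% by both the broad and the narrow list. Of the same genes 3.06% had H3K27me3 in QSC only, as at Smad7, 12.8% in both states, as at Fst, and 77.6% in neither, as at Bmp2 and the Id genes. Both marks stood at the same end of 1 gene in QSC (Fst) and of 4 in ASC, against 5.34% and 10.3% of all genes. They stood together in ASC only at 3 genes, against 5.78%, and in QSC only at 0, against 0.827%.

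By the bases covered over record and flanks, 9 of the 10 genes had some H3K4me3 in QSC and the same 9 in ASC, against 62.7% and 65.2% of all genes, and 0 had it in ASC only, against 3.21%. More bases were covered in ASC at 7 of the 9, against 90.2% of genes, and fewer at 2, Bmp4 and Chrdl2, against 9.77%. The excess at Bmp2, Fst, Smad6, Id2 and Id3 turned into a deficit with the broad lists or with equal covered bases. The broad H3K4me3 lists are unlike in size, covering 255 Mb in QSC and 88.8 Mb in ASC. None of the 9 had at least 1.5-fold more (45.8% of genes did), and Chrdl2 had at least 1.5-fold less (1.32%). H3K27me3 covered some bases at 5 genes in QSC and 6 in ASC, against 72.1% and 70.4%, with Chrdl2 covered in ASC only (4.95%). Of the 6, 4 had more covered bases in ASC (Bmp2, Bmp4, Chrdl2 and Smad6) and 2 had fewer (Fst and Smad7), against 55.2% and 43.5%. Among the 5 genes covered in both states the excess was at least 1.5-fold in ASC at Bmp4 and Smad6, against 22.8%, and in QSC at 0, against 14.8%.

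**Figure D2:**
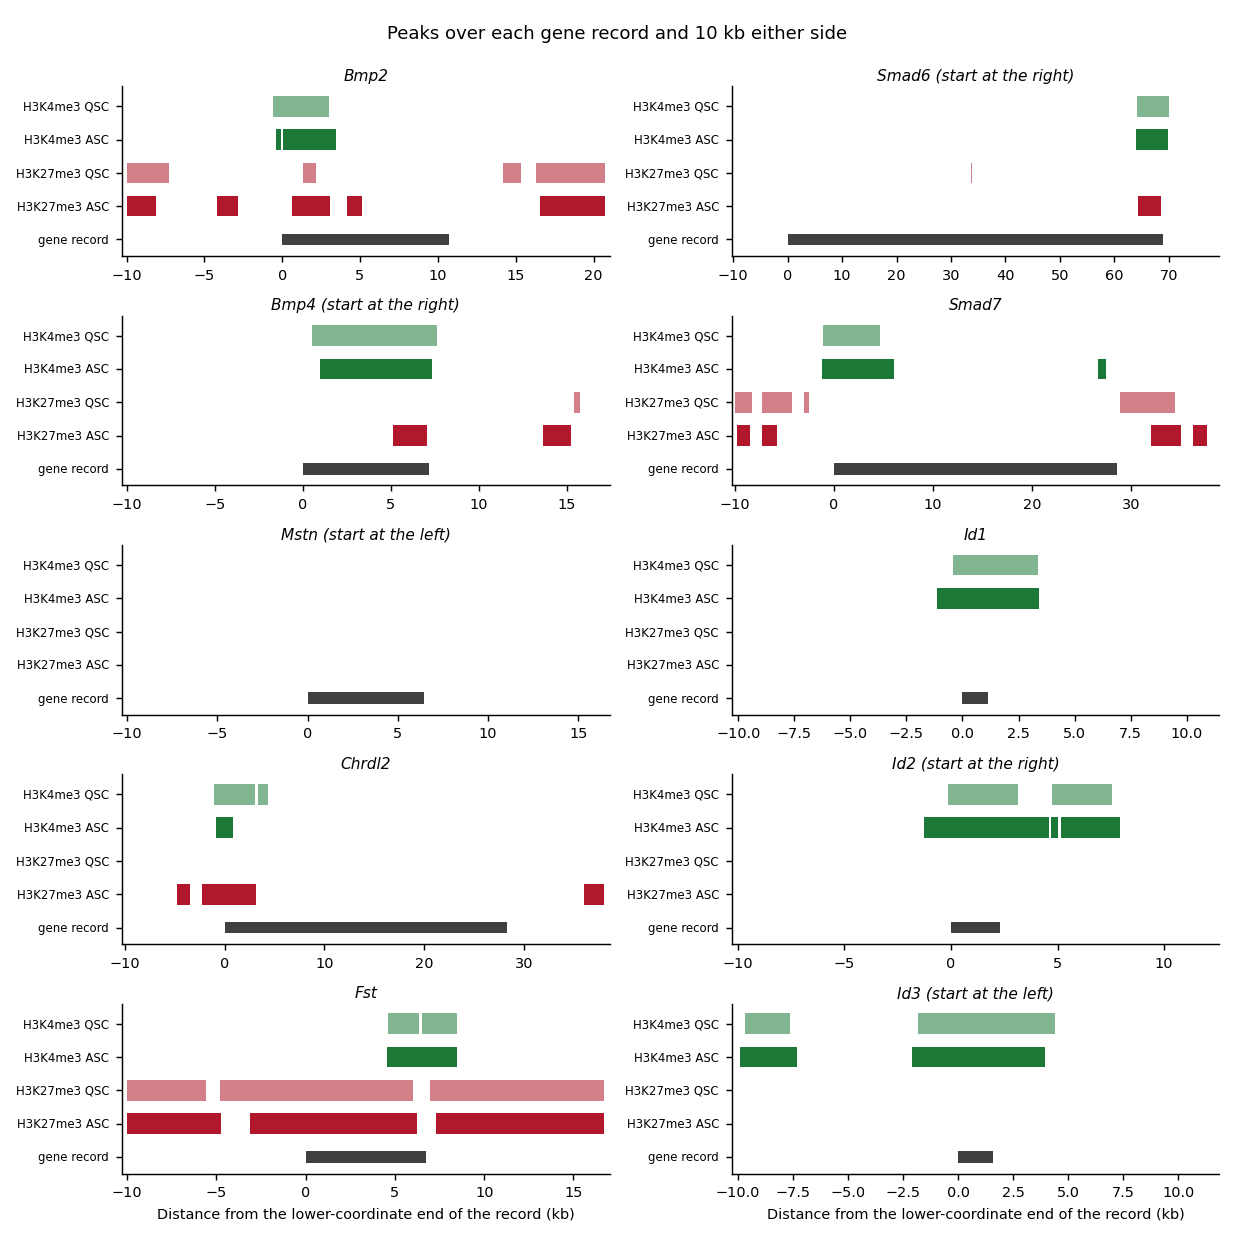
Peaks over each gene record (dark bar) and 10 kb either side, with distance from the lower-coordinate end of the record in kb on the horizontal axis; H3K4me3 narrow peaks are green and H3K27me3 broad peaks red, pale for QSC and dark for ASC, cut at the edge of the window. H3K27me3 lies over all or part of the H3K4me3 peak of Bmp4, Chrdl2 and Smad6 in the ASC lane and not in the QSC lane. At Fst and Bmp2 H3K27me3 lies over part of the H3K4me3 peaks in both states, and it is missing at the Id genes and Mstn.

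Bmp4, a BMP ligand, had one of the longest H3K4me3 peaks among the 10 genes, and in ASC a short H3K27me3 peak inside it. The gene record is chr14:46383525-46390669 on the minus strand. In QSC the H3K4me3 peak was 7102 bp long with a fold enrichment over background of 21.8, and 96.7% of the QSC narrow peaks had a lower fold. In ASC it was 6360 bp long with a fold of 15.9, above 48.8% of the ASC list. Each fold is the authors' own value within its list, so the pair of folds gives no change. The QSC peak ran from 492 bp before the start to 6609 bp after it and also held both ends of the lncRNA Gm15222, whose record lies within that of Bmp4.

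Over Bmp4 and its flanks H3K27me3 covered 314 bp in QSC, in a single peak over 8 kb before the start, and 3510 bp in ASC. The ASC peak of interest lay at chr14:46388665-46390569, from 100 to 2004 bp after the start, with a fold of 2.89 that exceeded 98.0% of the ASC broad list and a -log10 q of 2.91. All of its 1905 bp lay under the ASC H3K4me3 peak, which measured 6360 bp. The narrow list gave a peak of 1638 bp at the same place in ASC (fold 4.91, -log10 q 8.91) and none in the window in QSC. The summit of H3K4me3 stood 702 bp after the start in QSC and 2989 bp after it in ASC, which is outside the H3K27me3 peak. The summits come from pooled lists and carry no error.

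Bmp2, the other BMP ligand, had H3K4me3 of nearly the same extent in both states and scattered H3K27me3 peaks. Its record is chr2:133552159-133562896. H3K4me3 covered 3556 bp in QSC, in 1 peak with a fold of 10.9, and 3744 bp in ASC, in 2 peaks of which the larger had a fold of 20.95. These folds exceeded 53.6% and 61.6% of their lists. H3K27me3 broad peaks covered 9181 bp in QSC and in ASC 10874 bp, and none reached a -log10 q above 1.0. Within the H3K4me3 peak H3K27me3 took up 832 bp in QSC and, in ASC, 2400 bp, where the broad peak had a fold of 1.69 (above 43.3% of the list) and a -log10 q of 0.31. The QSC peak had a fold of 2.25, above 90.8% of its list, and a -log10 q of 0.89. The ASC peak covered 360 bp of the end window, under the 500 bp needed for a call, and no H3K27me3 narrow peak lay there in either state.

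Mstn, which encodes myostatin, had no H3K4me3 narrow peak and no H3K27me3 peak of either list in the record (chr1:53061640-53068079) or its flanks, in either state. Of all genes 34.0% had no H3K4me3 narrow peak in either state by this measure, and 22.9% no H3K27me3 broad peak. The broad H3K4me3 lists held weak peaks there, 2 in QSC outside the gene with folds of 1.47 and 1.67, and 1 in ASC of 2955 bp that began 95 bp after the start, with a fold of 1.72 and a -log10 q of 0.15.

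Chrdl2, a BMP antagonist, had the largest difference of the 10 genes in bases covered by H3K4me3 narrow peaks, with less H3K4me3 and more H3K27me3 in ASC. The record is chr7:100006404-100034728, and all H3K4me3 narrow peaks lay about its lower-coordinate end. In QSC they were 2 peaks of 4035 and 1045 bp with folds of 14.5 and 5.55, 5080 bp in all. In ASC a single peak of 1701 bp with a fold of 8.13 was found, wholly inside the QSC peaks, a 2.99-fold smaller extent. Merged over gaps of up to 1 kb into a domain, the mark measured 5413 bp in QSC, longer than at 98.2% of marked genes, and 1701 bp in ASC, longer than at 19.1%. The log2 ratio of -1.67 (ASC over QSC) was undercut by 11 of the 11425 genes marked in both states, and 1.34% of those genes had a domain at least 1.5-fold shorter in ASC.

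H3K27me3 at Chrdl2 was absent from both QSC lists over the whole window, within a stretch of 206347 bp without a broad peak, and covered 8770 bp in ASC. The main ASC peak, chr7:100004098-100009528, was 5431 bp long, with a fold of 2.69 (above 97.1% of the list) and a -log10 q of 2.69. It enclosed the whole ASC H3K4me3 peak and 4035 bp of the H3K4me3 peaks of QSC. The ASC narrow list held 3 peaks there, the strongest of 1499 bp with a fold of 5.93 and a -log10 q of 12.9. The other broad peaks in the window, of 1350 and 1989 bp, had -log10 q of 0.27 and 0.1. Of the 153 genes whose domain was at least 1.5-fold shorter in ASC, 34 (22.2%) were called for H3K27me3 in ASC only, which is the pattern of Chrdl2.

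Over 4 values, the bases under H3K4me3 narrow and H3K27me3 broad peaks in each state, the protein-coding genes nearest to Chrdl2 were Cdc42ep1, Il11ra1, Prrt3, Optc and Pm20d1. Likeness was the Euclidean distance of log2(bases + 100), from 0.48 for Cdc42ep1 to 0.99 for Pm20d1. Cdc42ep1 had 4467 bp of H3K4me3 in QSC and 2296 bp in ASC, and 0 and 7727 bp of H3K27me3. At Il11ra1 H3K4me3 covered 4205 and 2888 bp and H3K27me3 0 and 7387 bp. H3K4me3 covered 3771 and 2233 bp at Prrt3, 3026 and 2577 bp at Optc, and 4181 and 3301 bp at Pm20d1. At each of the 5 this difference between the states was smaller than at Chrdl2 (5080 and 1701 bp). All 5 had 0 bp of H3K27me3 in QSC. They were chosen on these same values, so their likeness to Chrdl2 is no separate finding.

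Fst, which encodes follistatin, was embedded in H3K27me3 in both states, with H3K4me3 over a gap in it. H3K27me3 broad peaks covered 93.6% of the record (chr13:114452262-114458989) and its flanks in QSC and 90.0% in ASC, 25006 and 24047 bp, of which 23052 bp were the same. The longest peaks reached beyond the window, 22865 bp in QSC with a fold of 2.86 and 28807 bp in ASC with a fold of 2.64. A gap of 938 bp in QSC (chr13:114458287-114459224) and of 1075 bp in ASC (chr13:114458498-114459572) held the higher-coordinate end of the record and the H3K4me3 summit of that state. The H3K4me3 peaks measured 1704 and 1997 bp in QSC, with folds of 4.6 and 8.71, and in ASC a single peak of 3942 bp had a fold of 14.6. H3K27me3 lay under 78.6% of the H3K4me3 bases in QSC and 72.7% in ASC. Fst was the only one of the 10 genes with both marks at an end in both states, against 4.51% of all genes. The record of the lncRNA Gm41074 overlaps that of Fst and runs past the window.

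Smad6 and Smad7, the inhibitory Smads, had long H3K4me3 peaks in both states and H3K27me3 in different places. At Smad6 (chr9:63953076-64022085, minus strand) the H3K4me3 peak was 5876 bp long in QSC and in ASC 5899 bp, with 5798 bp in common, with folds of 17.4 and 14.8. H3K27me3 covered 195 bp in QSC, far inside the gene, and 4235 bp in ASC in a peak from 421 to 4655 bp after the start (chr9:64017404-64021638). That ASC peak lay wholly under H3K4me3, covered 71.8% of it and held its summit, but it was weak, with a fold of 2.17 and a -log10 q of 1.25. Narrow peaks of 594 and 434 bp (folds 3.34 and 3.48) lay within it in ASC, and none in QSC.

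At Smad7 (chr18:75367365-75395935) H3K4me3 covered 5693 bp in QSC and in ASC 8079 bp. The main peak had folds of 20.3 and 39.9, above 94.9% and 98.0% of the lists, and a second peak of 793 bp (fold 3.61) stood near the other end of the gene in ASC. H3K27me3 lay in the flanks only, over 10852 and 7294 bp, with a -log10 q of at most 1.0, and overlapped H3K4me3 in neither state. The Smad7 call in QSC rested on 711 bp at the end of the record away from the main H3K4me3 peak, in a peak that also held an end of the lncRNA Gm41776. The main H3K4me3 peak also reached an end of the lncRNA Gm20544. Where Smad6 had 4040 bp more H3K27me3 in ASC, Smad7 had 3558 bp less, a 1.49-fold difference, under the 1.5-fold used for a change. With broad peaks of q at most 0.05 neither gene had any H3K27me3 in either state.

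**Figure D3:**
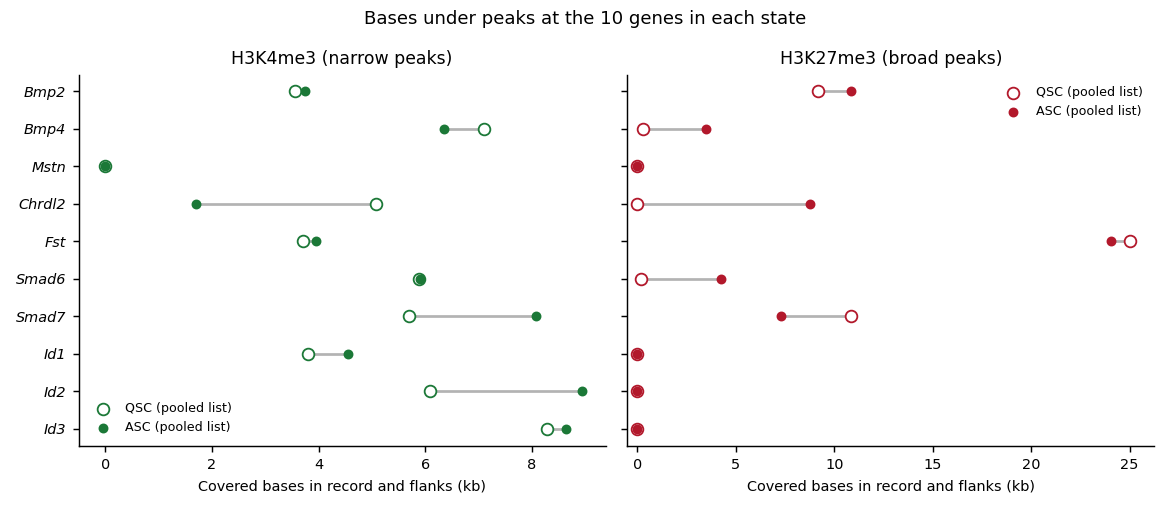
Bases under H3K4me3 narrow peaks (left) and H3K27me3 broad peaks (right) over each record and 10 kb either side, in kb on the horizontal axes, for the 10 genes; open circles are QSC, filled circles ASC, 1 pooled list each, and a grey line joins the pair. Chrdl2 has 5080 bp of H3K4me3 in QSC and 1701 bp in ASC, and H3K27me3 is at 0 at Mstn, Id1, Id2 and Id3.

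The Id genes carried strong H3K4me3 over the whole gene in both states and no H3K27me3 peak of either list. Each is a short record (1160 bp for Id1, 2294 bp for Id2 and 1571 bp for Id3) that lay wholly inside an H3K4me3 peak. In QSC the peak at Id3 had a fold of 33.9, and 5 of the 14354 narrow peaks of that list were higher. Id1 had a fold of 20.1 (736 peaks higher) and Id2 16.2 (2222 peaks higher). In ASC the folds were 40.5 at Id2 (252 of 15869 peaks higher), 35.8 at Id3 (841 higher) and 33.96 at Id1 (1229 higher). Id3 thus stood first of the Id genes in the QSC list and Id2 in the ASC list.

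The stretch without an H3K27me3 broad peak around these genes was 25330 bp long in QSC and, in ASC, 28079 bp at Id1 (chr2:152736251-152737410). At Id2 (chr12:25093799-25096092, minus strand) it was 74712 and 184850 bp, and at Id3 (chr4:136143822-136145392, plus strand) 163809 and 103595 bp. H3K4me3 covered 3793 bp in QSC and 4543 bp in ASC at Id1, and 8290 and 8644 bp at Id3. Id2 had 6090 bp in QSC and 8934 bp in ASC, 1.47-fold more, but 10211 and 9956 bp in the broad lists, where ASC had less. Those broad lists cover 255 Mb in QSC and 88.8 Mb in ASC.

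Id2 and Id3 each had a second H3K4me3 peak before the start in both states. At Id3 it lay from 9703 to 7633 bp before the start in QSC (fold 9.68) and from 9907 to 7304 bp before it in ASC (fold 10.1), and touched no end of another gene record. At Id2 it lay from 5242 to 2439 bp before the start in QSC (2804 bp, fold 9.19) and from 5615 to 2873 bp in ASC (2743 bp, fold 15.2). The peak over Id2 itself had 3286 bp in QSC and 5872 bp in ASC, where it reached closer to this second peak. In ASC they were close enough to merge into a domain of 9192 bp, while in QSC the 3286 bp peak stood alone. The resulting log2 ratio of 1.48 was above that of 96.6% of genes, but with gaps of up to 3 kb merged the QSC and ASC domains were 7667 and 9192 bp (0.26), and in the broad lists 9615 and 9956 bp (0.05).

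H3K4me3 domains of the 9 marked genes were already long in QSC and apart from Chrdl2 and Id2 differed by less than 1.5-fold in length between the states. Median lengths in QSC and ASC were 5413 and 5899 bp, against 1829 and 2749 bp over all 11425 genes marked in both states. Each of the 9 was longer than at least 89.9% of marked genes in QSC. The median log2 ratio of length, ASC over QSC, was 0.03, with 6 genes longer and 3 shorter in ASC, beside 0.55 and 90.7% longer over all genes. Among the 1163 genes whose QSC domain was at least 3286 bp, the shortest of the 9, the median was 0.26 and 78.4% were longer. Their median QSC length was 4123 bp, still below the 5413 bp of the 9, so the sets are not matched in length. Apart from Chrdl2 and Id2, the ratios ran from -0.16 at Bmp4 through -0.04 at Id3, 0.01 at Smad6, 0.03 at Fst, 0.12 at Bmp2 and 0.26 at Id1 to 0.36 at Smad7. With no gap merged the Fst domain was 1997 bp in QSC and in ASC 3942 bp (0.98), and in the broad lists that of Bmp4 was 15611 and 9479 bp (-0.72). A domain at least 1.5-fold longer in ASC was found at 1 of the 9 (Id2), against 46.2% of all genes, and one at least 1.5-fold shorter at 1 (Chrdl2), against 1.34%.

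**Figure D4:**
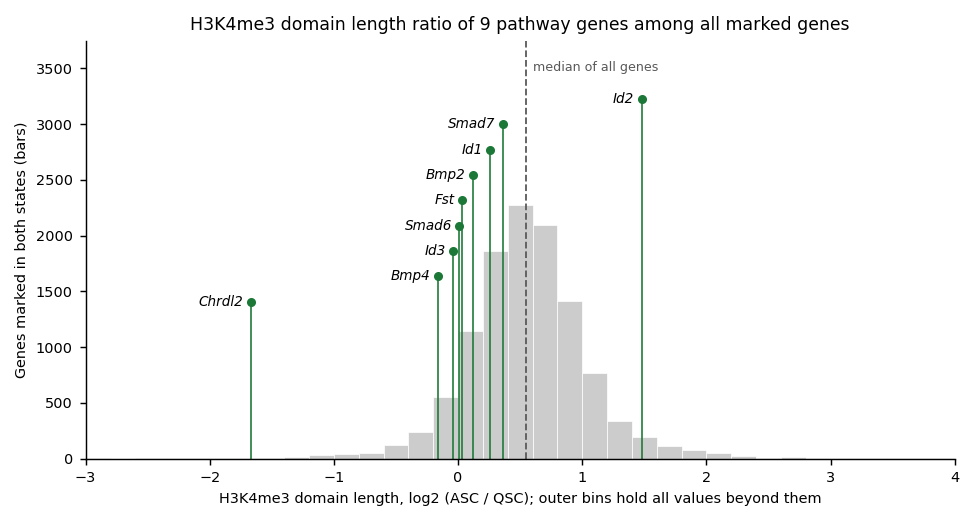
Log2 ratio of H3K4me3 domain length, ASC over QSC (horizontal axis), for 11425 protein-coding genes marked in both states (grey bars, number of genes on the vertical axis) and for the 9 marked pathway genes (green lines, whose heights only separate the names). Chrdl2 lies at -1.67, Id2 at 1.48 and the other 7 from -0.16 to 0.36, left of the median of all genes at 0.55.

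Within the ASC list the 9 genes fell into 2 ranges of H3K4me3 fold that matched their H3K27me3 calls by the main rule. The 4 genes with H3K27me3 at the same end had folds of 8.13 (Chrdl2), 14.6 (Fst), 14.8 (Smad6) and 15.9 (Bmp4), and the other 5 had 20.95 (Bmp2), 33.96 (Id1), 35.8 (Id3), 39.9 (Smad7) and 40.5 (Id2), with no overlap. Over all genes marked in ASC the median H3K4me3 fold was 10.1 for the 2251 with H3K27me3 at the same end and 24.4 for the 9949 without. The quartiles were 6.5 and 16.1 with it and 17.2 and 30.7 without, so the order at the 9 genes is that of genes in general. With q at most 0.05, chosen after seeing the data, Smad6 lost its call, and its fold lay between those of the called Fst and Bmp4. With the narrow lists Bmp4 and Chrdl2 alone were called, and the folds of Fst and Smad6 lay between theirs. In the QSC list the same 4 genes were spread over the range, from 8.71 at Fst through 14.5 at Chrdl2 and 17.4 at Smad6 to 21.8 at Bmp4, while Bmp2 had 10.9. By the QSC calls Fst alone had both marks, and its fold was the lowest of the 9. Over all genes marked in QSC the median fold was 6.77 for the 1168 with H3K27me3 at the same end and 12.6 for the 10427 without. Among all genes with H3K4me3 in both states, those called for H3K27me3 in ASC only had a median log2 domain ratio of 0.27 (736 genes), against 0.58 for the 8871 called in neither state. The median was 0.4 for the 1468 genes called in both states and 0.58 for the 350 called in QSC only.

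The H3K27me3 calls at Bmp4, Chrdl2 and Smad6 differ in how well they held. With broad peaks of q at most 0.05, a threshold chosen after seeing the data, the call in ASC only was kept at Bmp4 and Chrdl2 and lost at Smad6, and with the narrow lists it was likewise kept at Bmp4 and Chrdl2. With a 500 bp window, or with 1000 bp of cover required, it was kept at Chrdl2 alone. No broad peak at the 10 genes reached a fold of 3 or a -log10 q of 5 in either state, so these thresholds left no call.

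Beyond the 10 genes, 70 other genes of the BMP, activin and TGF-beta pathways were counted by role. H3K4me3 was called at 51 of them in QSC (72.9%, against 53.0% of all genes) and 54 in ASC (77.1%, against 55.7%), with 50 in both states. H3K27me3 was called at 22 in QSC (31.4%, against 30.5%) and 31 in ASC (44.3%, against 34.3%). Of these 9 were called in ASC only, 12.9% against 7.5% of all genes, and 0 in QSC only, against 3.68%. All 11 Smads and their regulators were called for H3K4me3 and not for H3K27me3 in both states, and of 15 receptors 13 carried H3K4me3 in both states. Of all genes 52.2% had H3K4me3 in both states, and 77.6% of those had no H3K27me3 call in either. With windows of 2.5 kb, Smad2 and Ski were called for H3K27me3 in ASC only. The highest QSC folds of these roles were at Ski (27.3) and Tgif1 (27.1), nuclear corepressors of Smads, and at Tgfbr3 (23.5) and Rgmb (22.02), which are coreceptors.

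Ligand genes and antagonist genes were the roles with most H3K27me3. Of 17 other ligand genes 10 were called for H3K27me3 in QSC (58.8%) and 12 in ASC (70.6%), and of 18 antagonists and binding proteins 8 (44.4%) and 13 (72.2%), beside 30.5% and 34.3% of all genes. The ligands called in ASC only were Bmp6 and Inhbb, both also called in ASC only by the narrow lists and both with H3K4me3 in both states. Bmp6, a BMP ligand, had H3K4me3 domains of 5206 and 3428 bp in QSC and ASC (log2 ratio -0.6), and its QSC fold of 26.9 was the highest of the 17, followed by Tgfb3 (18.2). Its ASC H3K27me3 peak measured 4586 bp, with a fold of 2.24. Inhbb, an activin subunit, had domains of 4388 and 3578 bp and an ASC H3K27me3 peak of 10883 bp with a fold of 3.01 and a -log10 q of 3.43. The antagonists and binding proteins called in ASC only were Chrd (chordin), Nbl1, Fstl1, Fstl3 and Ltbp3, none of them in ASC only by the narrow lists. The ASC H3K27me3 peak at Ltbp3 measured 7742 bp, with a fold of 2.94 and a -log10 q of 3.57, and Ltbp3 was still called in ASC only with q at most 0.05. Ltbp1 (20.3) and Nbl1 (19.1) had the highest QSC H3K4me3 folds of that role.

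H3K4me3 was called in ASC only at 4 of the 70 genes (5.71%, against 3.54% of all genes) and in QSC only at 1, Sost (against 0.777%). Values are given for 3 of the 4, which do not stand for the group. Bmp7, Sostdc1 and Msx2 had ASC folds of 4.7, 4.33 and 3.43, and Sost had 3.87 in QSC. The receptors called for H3K27me3 in ASC only were Acvr1c and Acvrl1, with -log10 q of 0.5 and 0.7. Id4, the remaining Id gene, differed from Id1, Id2 and Id3 in that it was called for H3K27me3 in both states, with peaks of 10058 and 7447 bp. These peaks were weak, with folds of 2.15 and 2.13 and -log10 q of 0.76 and 1.1, so neither had a q of at most 0.05. At Id4 the marks were not called at the same end in either state. The role of targets as counted here also held genes of the E proteins that Id proteins bind. In it Atoh8 (21.5) and the E protein gene Tcf3 (17.9) had the highest QSC H3K4me3 folds. The median log2 domain ratio of the 50 pathway genes marked in both states was 0.25.

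**Figure D5:**
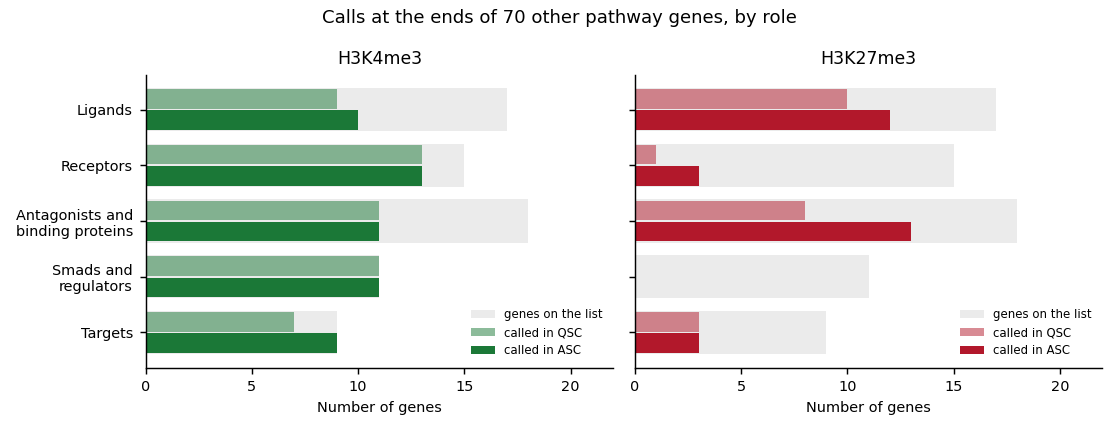
Number of other pathway genes (horizontal axis) called at an end of the record for H3K4me3 (left) and H3K27me3 (right), by role; grey bars give the genes on the list, pale bars the calls in QSC and full-colour bars those in ASC. Antagonists and binding proteins have 8 H3K27me3 calls in QSC and 13 in ASC, and the Smads and their regulators have 0 in each.

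All 9 satellite cell markers on a list, Pax7 and Myf5 among them, carried H3K4me3 in both states. Among markers of other cells it was called at 2 of 6 endothelial genes in QSC and 3 in ASC, 0 and 1 of 6 immune genes, 1 and 3 of 6 fibro-adipogenic genes, 5 and 3 of 6 pericyte and smooth muscle genes, 3 and 3 of 5 Schwann and glial genes, and 1 and 2 of 6 myofibre genes. Pecam1, Cdh5 and Emcn (endothelial), Ptprc (immune), Pdgfra, Ly6a and Dcn (fibro-adipogenic) and Rgs5 (pericyte) had no call in either state. Kdr and Tek (endothelial), Dpt (fibro-adipogenic), Cspg4, Acta2 and Kcnj8 (pericyte and smooth muscle) and Mbp and Cnp (Schwann and glial) were among those called in both. The part of such cells in the differences above was not tested. The lists differ in length, with 14354 narrow H3K4me3 peaks in QSC and 15869 in ASC, and 130668 and 95819 broad H3K27me3 peaks that cover 455 and 517 Mb, and the median -log10 q of the broad H3K27me3 peaks was 0.42 and 0.378.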

How the data were processed

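H3K4me3 and H3K27me3 were measured by ChIPmentation, a form of ChIP-seq in which a transposase adds adapters to antibody-bound DNA, per the labels' protocols. Per the submitters' processing notes the reads were aligned with Bowtie2 2.3.2 to mm10 and peaks came from MACS2 2.1.1, among other tools; the sources used here do not state the settings. From the deposited lists were used each peak's position, summit offset, enrichment over background, which is a linear fold, and -log10 q-value, and the -log10 p-value to rank peaks where lists were shortened. The authors' peak score, also deposited, was not used. A group's replicates share 1 set of lists in the labels, so every list is pooled.

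Gene records were those of RefSeq for GRCm38.p6, without strand or exons, so peaks were not assigned to exons or introns; start sites came from the RefSeq promoter table where it has the gene. Main lists were narrow for H3K4me3 and broad for H3K27me3. Windows, overlaps and merging are given with the results. The interval code was tested on simulated data. Python 3.11.15 with pandas 2.3.3 and numpy 2.4.6 was used. With 1 pooled list per group no test was made, and a difference was described as a change in extent from 1.5-fold; peak folds were compared only within a list. The 10 genes and all gene lists were chosen with earlier results of these data known. Named beyond the 10 were pathway genes whose call differed between the states, the pair with the highest QSC H3K4me3 fold in each role, the 5 genes nearest to Chrdl2 and neighbouring records reached by a peak; Id4, and example markers, were named after their values were seen. A pathway gene that this rule names is not reported here. Alternatives were thresholds on q and fold, list length, list type, windows, overlaps, flanks, merging gaps and start sites.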

Additional observations from a re-analysis of the deposited data

How the results depend on the processing

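Each setting was changed alone. Of 51 recomputed differences in extent that were at least 1.5-fold or against 0 as reported, 44 kept their direction, 7 came to 0 and 0 reversed. The 44 include values that a setting did not alter, such as -3379 bp of H3K4me3 at Chrdl2 under the q and fold thresholds. They also include the Id2 log2 domain ratio of 0.05 in the broad lists. Domains that a setting removed, as at Chrdl2 with equal covered bases, were left out, so the tally is no measure of robustness. Smaller differences did turn, in 22 of 152 recomputed values: 9 with the broad H3K4me3 lists, 6 with equal covered bases and 7 elsewhere. The broad H3K4me3 lists cover 255 Mb in QSC and 88.8 Mb in ASC, and the part of this in the turned values was not tested. With the broad lists the H3K4me3 difference (ASC minus QSC) went from 2844 to -255 bp at Id2, from 241 to -3309 bp at Fst and from 23 to -12482 bp at Smad6, and that of H3K27me3 at Fst went from -959 bp to 211 bp without flanks and 734 bp with 20 kb flanks. Of 160 recomputed counts 111 stayed within 1.5 times the reported one and 49 did not; the cause was not tested for any of them. Requiring a -log10 q of at least 5 or a fold of at least 3 left 0 of the 10 genes with H3K27me3 in QSC, in ASC, in ASC only or beside H3K4me3 in either state, and 0 with more H3K27me3 in ASC, since no broad peak there was that strong. Among the 70 other pathway genes the q threshold left 0 H3K27me3 calls in QSC, 3 in ASC and 3 in ASC only, and the fold threshold 4, 6 and 4. With q at most 0.05, chosen after seeing the data, H3K27me3 was called in QSC at 1 of the 10 genes (Fst) and 10 pathway genes, and in ASC at 18 pathway genes, and 2 of the 10 genes had more of it in ASC. The narrow H3K27me3 lists called 1 of the 10 in QSC (Fst), 2 in ASC (Bmp4 and Chrdl2), both marks together at 0 and 2, and 11 and 17 pathway genes. Windows of 500 bp gave H3K27me3 at 1 gene in QSC, 2 in ASC (Chrdl2 and Fst) and 1 in ASC only (Chrdl2), and both marks at 0 and 1. Larger overlaps (200 bp for H3K4me3, 1000 bp for H3K27me3) gave 1, 2 and 1, and both marks at 1 gene in ASC. Windows of 2.5 kb gave both marks at 2 genes in QSC (Bmp2 and Fst) and 14 pathway genes with H3K27me3 in ASC only. With the ASC H3K4me3 list shortened to equal covered bases, 5 genes had an ASC call, 0 had both marks in ASC and 2 had more H3K4me3 in ASC; H3K4me3 in ASC only was found at 0 pathway genes, and with equal numbers of peaks at 1. The broad H3K4me3 lists gave 1 of the 10 genes called in ASC only (Mstn), 1 pathway gene (Dcn), both marks at 2 genes in QSC (Fst and Smad7) and 3 genes with more H3K4me3 in ASC; without flanks (0 kb) 4 genes had more.

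No paired analysis was possible because each list is pooled over the replicates of its group, and no fit without a single replicate was run for the same reason. Without read depth, a missing peak is not evidence that a mark is absent, and differences in list length between the states cannot be told apart from differences between the cells.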
